A study of Homo sapiens with 6 samples.

Results

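Human genes for potassium channels carry names that begin with KCN. Of the 58735 genes in the deposited tables, 97 were protein-coding with such a name, and these are described here in A549 cells, a line from a human lung adenocarcinoma. They were chosen by name and biotype alone, and no measured value decided which genes are members. The family itself was chosen with earlier results of these data known, so comparing it with all genes is not independent of those results. KCNMA1 was put first because its counts were known to differ between the groups, so its values are given as a description with no p-value. The RNA came from cells grown with 10% serum and stably infected with lentivirus in 3 ways. WT cells carried PLVX-HOXB9, T133A cells carried PLVX-HOXB9-T133A, in which alanine takes the place of a threonine of HOXB9, a homeobox transcription factor, and KO cells carried PLVX-HOXB9 KO and are taken to lack working HOXB9. There were 2 libraries in each group. Infection with a lentivirus is thus shared by all 6 libraries, cells without it were not analysed here, and the labels do not say whether a group is 1 clone, or whether WT and T133A cells keep their own HOXB9. Nor do they state that replicate libraries are from different cultures, and the p-values then reflect only how far these samples spread, which may be technical error.

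Potassium channels let potassium ions leave the cell down their gradient, which sets the resting membrane voltage, helps cells regulate their volume, and in epithelia drives chloride and fluid transport. The pore is formed by alpha subunits of a few classes: voltage-gated channels, which open when the membrane depolarises, calcium- or sodium-activated channels, inward rectifiers, which hold the resting voltage, and two-pore-domain channels, which leak potassium at rest. Auxiliary subunits, which form no pore of their own, change gating, surface delivery or drug response of these pores.

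The names split into 40 voltage-gated, 8 calcium- or sodium-activated, 16 inward rectifier and 15 two-pore-domain genes and 18 genes of auxiliary or regulatory proteins. Not all were measurable. In every library 15 members had no count. A count of 0 allows up to 3 counts, or 0.161 to 0.182 CPM (counts relative to a scaled library size, as edgeR's CPM) depending on the library. The 15 were KCNA1, KCNA3, KCNA4, KCNA5, KCNA6 and KCNA10 of the Shaker class of voltage-gated channels, KCNC2, the inward rectifier KCNJ9, the two-pore genes KCNK4, KCNK10, KCNK16, KCNK17 and KCNK18, and KCNMB1 and KCNMB2, beta subunits of the BK channel. A further 31 were counted in at least 1 library but missed the filter on low counts, none of them above 15 counts in any library. The 51 others entered the test, and 21 of these had a mean of at least 5 CPM in at least 1 group.

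Total counts per library ran from 16299059 to 18745432. HOXB9, the targeted gene, stood at 223 and 217 CPM in WT, 275 and 210 in T133A, with 14.5 and 15.4 in KO, so the KO libraries were low as labelled. Mitochondrial transcripts took 7.84% to 7.87% of the counts in WT, 8.51% to 8.91% in T133A and 4.45% to 5.60% in KO. Epithelial markers (CDH1, EPCAM, KRT8, KRT18 and KRT19) were counted in all libraries, with sums of 7787 to 8366 CPM in WT, 7195 to 8683 in T133A and 5973 to 7236 in KO, and 2 of the 5, CDH1 and EPCAM, fell in KO. Sums over 5 neuronal or neuroendocrine markers were 29.4 to 29.8 CPM in WT, 38.1 to 40.2 in T133A and 13.0 to 13.9 in KO. In WT and T133A most of that sum was SNAP25, which rose in T133A and fell in KO against WT, while SYP and CHGA passed in neither. The sum over 5 fibroblast markers was 20.2 to 21.2 CPM in WT, 16.6 to 19.6 in T133A and 9.41 to 10.3 in KO. Its members did not move together: against WT, COL3A1 and DCN (0 counts in KO) fell in KO and COL1A1 rose. Endothelial markers summed to at most 2.23 CPM and haematopoietic markers to at most 0.643 CPM in any library. The part of these shifts in the results was not tested, and in bulk RNA fewer cells of a type and less RNA per cell cannot be told apart.

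KCNMA1 encodes the pore of the BK channel, the large-conductance potassium channel opened jointly by calcium and voltage. RefSeq promoter windows of the GRCh38.p14 build, from 250 bases before to 50 after a transcript start, were found for 72 of the 97 members. Those of KCNMA1 are printed because it had the largest fold difference among members counted in every library, that of KCNQ5 because of the 50 members tested besides KCNMA1 it was the 1 called higher in T133A than in WT, and those of KCNJ2 and KCNJ8 because these inward rectifiers fell far in KO. KCNMA1 has 2 windows, at chr10:77637759-77638058 and chr10:77350712-77351011, both on the minus strand. KCNQ5 lies at chr6:72621814-72622113 on the plus strand, KCNJ2 at chr17:70169282-70169581 on the plus strand and KCNJ8 at chr12:21774657-21774956 on the minus strand. Capitals mark matches, on either strand, to TATANA (the TATA box), TGANTCA (the site of AP-1), TTTAT (part of the motif of posterior HOX proteins) or TAAT (the core that many homeodomain proteins bind).
KCNMA1 upstream window: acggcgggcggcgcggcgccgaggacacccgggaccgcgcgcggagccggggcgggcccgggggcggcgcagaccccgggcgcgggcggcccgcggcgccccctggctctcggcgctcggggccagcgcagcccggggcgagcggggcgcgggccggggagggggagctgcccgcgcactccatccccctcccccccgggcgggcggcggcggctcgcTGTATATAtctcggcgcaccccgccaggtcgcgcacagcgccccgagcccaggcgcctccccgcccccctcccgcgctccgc
KCNMA1 downstream window: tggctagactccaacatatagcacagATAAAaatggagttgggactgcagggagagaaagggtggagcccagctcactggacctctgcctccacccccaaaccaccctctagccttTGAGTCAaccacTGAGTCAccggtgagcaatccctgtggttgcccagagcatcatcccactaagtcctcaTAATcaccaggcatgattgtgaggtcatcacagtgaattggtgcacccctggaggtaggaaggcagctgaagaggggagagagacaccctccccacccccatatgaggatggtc
KCNQ5: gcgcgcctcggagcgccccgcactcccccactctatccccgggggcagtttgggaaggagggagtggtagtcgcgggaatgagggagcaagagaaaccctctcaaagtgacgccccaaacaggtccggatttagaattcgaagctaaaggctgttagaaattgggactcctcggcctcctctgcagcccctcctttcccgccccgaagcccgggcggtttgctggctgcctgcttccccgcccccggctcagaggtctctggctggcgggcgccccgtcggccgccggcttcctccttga
KCNJ2: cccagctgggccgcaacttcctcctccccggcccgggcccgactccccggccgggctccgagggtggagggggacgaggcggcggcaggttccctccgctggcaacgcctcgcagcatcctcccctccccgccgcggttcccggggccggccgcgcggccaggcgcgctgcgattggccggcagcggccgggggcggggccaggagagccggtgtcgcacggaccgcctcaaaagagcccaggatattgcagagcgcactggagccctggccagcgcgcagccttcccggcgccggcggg
KCNJ8: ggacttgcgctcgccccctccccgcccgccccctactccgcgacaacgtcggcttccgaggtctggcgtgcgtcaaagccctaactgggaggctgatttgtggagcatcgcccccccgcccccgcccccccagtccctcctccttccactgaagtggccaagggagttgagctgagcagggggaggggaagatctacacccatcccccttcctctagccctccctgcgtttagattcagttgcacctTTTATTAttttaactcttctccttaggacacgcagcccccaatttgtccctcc

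The 2 windows of KCNMA1 differ in base composition. The upstream one is 85.7% G or C with 54 CpG pairs, and its only matches are 2 overlapping TATANA runs, at -32 to -27 and -30 to -25 from the start. The downstream one is 54.7% G or C with 1 CpG, and holds TGANTCA at -134 to -128 and again at -122 to -116, with 1 TTTAT and 1 TAAT. KCNQ5 (65.7% G or C, 24 CpG) and KCNJ2 (78.0%, 39 CpG) hold none of the 4 letter runs. KCNJ8 (61.7%, 16 CpG) has TTTAT at -3 to 2, overlapping a TAAT on the other strand at 1 to 4. Among all 35116 RefSeq windows of this length, 19.0% hold TATANA, 7.71% TGANTCA, 34.9% TTTAT and 50.2% TAAT, and a TATANA run of the form TATAAA also counts as a TTTAT. Over the 110 windows of the 72 members these shares were 11.8%, 8.18%, 32.7% and 36.4%, with a median of 63.5% G or C against 58.7% over all windows. A match describes letters and shows no binding, and the counts do not tell which start was used.

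KCNMA1 (ENSG00000156113, GRCh38 chromosome 10, 76869601 to 77638369, minus strand) had few reads in WT and many in KO. Its counts were 43 and 40 in WT cells, 113 and 114 in T133A and 1238 and 1477 in KO cells, or 2.37 ± 0.200, 6.60 ± 0.146 and 77.3 ± 3.07 CPM (mean ± SD, n = 2 each). Both KO libraries stood far above all others, both T133A libraries stood above both WT libraries, and no groups overlapped. With 2 libraries a group, the libraries of an unchanged gene often separate as well. Lack of overlap is thus given for each gene as a description only, and its share over all genes was not computed. The log2 fold change was 5.02 ± 0.17 (SE) for KO against WT, a 32.5-fold difference, and 1.47 ± 0.19 for T133A against WT, a 2.78-fold difference. KO stood 11.7-fold above T133A. The antisense genes within its span, KCNMA1-AS1 and KCNMA1-AS2, had at most 1 count in any library.

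The BK pore works with beta subunits (KCNMB genes) and gamma subunits (LRRC26, LRRC38, LRRC52 and LRRC55), which shift its voltage and calcium dependence. KCNMB4, the beta subunit best known from neurons, had 1.87 and 1.51 CPM in WT and 2.76 and 2.65 in T133A, against 5.28 and 6.67 in KO. It rose in KO, with a log2 fold change of 1.83 ± 0.27 (edgeR adjusted p = 8.56e-06), and both KO libraries lay above all others. Against WT its T133A value was 0.68 ± 0.29 (edgeR adjusted p = 0.162), which did not pass. The libraries of T133A and WT did not overlap, which is no evidence of a difference at 2 libraries a group. KCNMB3 stayed between 0.807 and 2.12 CPM and passed in no comparison, with groups that overlapped. It lies opposite PIK3CA, and without a known strand setting, how reads in the overlap were counted is not known. The gamma subunit LRRC55 had a different pattern, with counts of 4 and 2 in WT cells, 97 and 93 in T133A cells and 4 and 0 in KO. It was high in T133A only (log2 fold change against WT 4.95 ± 0.50, adjusted p = 2.9e-07), while KO differed from WT by -0.55 ± 0.98 (adjusted p = 0.671). LRRC26 and LRRC38 had at most 6 counts in any library and LRRC52 had none.

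**Figure D1:**
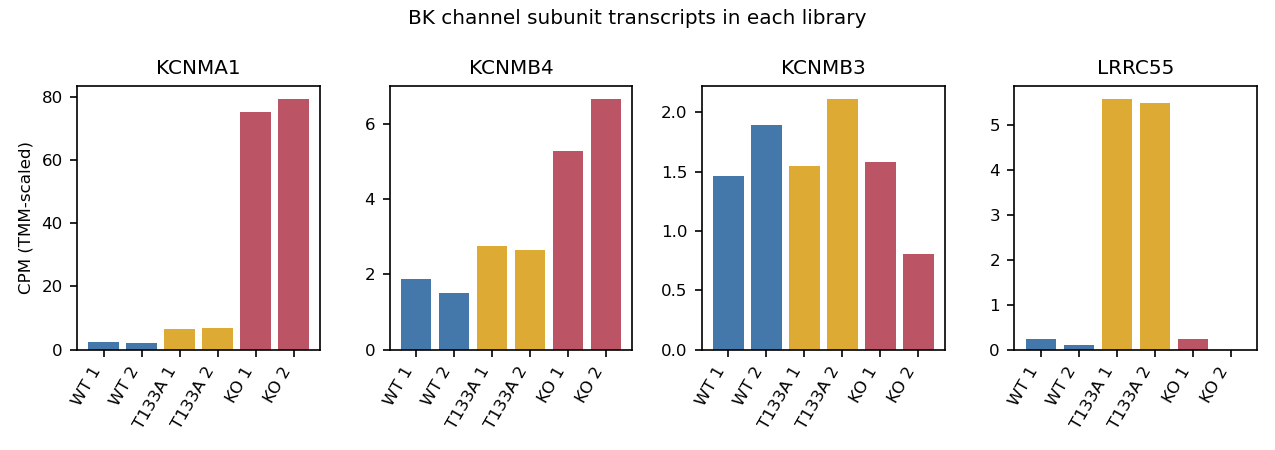
Level of 4 BK channel subunit genes in each library, as TMM-scaled CPM on linear axes that start at 0, with a separate scale per gene. Each bar is 1 library, coloured by group. The KCNMA1 bars reach 75.2 and 79.5 CPM in KO, KCNMB4 is highest in the same libraries, KCNMB3 overlaps between groups, and LRRC55 stands high in the T133A libraries only.

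The comparison of KO with WT asks what differed when HOXB9 was low. Of the 50 members tested besides KCNMA1, 10 rose and 18 fell in KO at an edgeR adjusted p under 0.05, and 22 did not pass. These 28 are 56.0% of the 50, where 46.6% of all 16340 genes tested passed (23.6% higher and 23% lower). The median log2 difference of the 50 was -0.23 and its median size 1.08, beside medians of 0.00 and 0.43 over all genes tested. Here and in the other comparisons, members and all genes were not matched for level. Only 20 of the 50 had a mean of at least 5 CPM in any group, and low counts carry wide counting error. The part of this in the sizes was not tested. Called changes of at least 2-fold numbered 22 of the 50 members, where 15.2% of all genes had one. The 50 are those that passed the filter, which a gene can pass through the group where it is high. By class, voltage-gated channels had 7 rises and 4 falls among 20 tested, inward rectifiers 0 and 6 among 10, two-pore-domain channels 0 and 4 among 6, and auxiliary proteins 2 and 2 among 9. Besides KCNMA1, 1 of 5 calcium- or sodium-activated channels rose and 2 fell.

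T133A differed from WT in fewer members. KCNQ5 rose, and KCNK5, KCNE4, KCNJ2, KCNJ3, KCNJ16, KCNT2 and KCNS3 fell, which is 8 of the 50, or 16.0%, where 9.55% of all genes tested passed (5.58% higher and 3.97% lower). The 7 falls became 3 by DESeq2, which gave 6 of the members no adjusted p, so the share called depends on the tool. Fewer falls were also called when a WT or T133A library was left out. Such a fit leaves 1 library in a group and has less power, so it cannot show that the calls rest on that library. The median log2 difference of the 50 was -0.09 and its median size 0.45, beside 0.00 and 0.20 over all genes. Of the 8 calls, 5 were of at least 2-fold, a size and call that 2.64% of all genes had. Between T133A and KO, 14 members were higher in T133A and 13 lower, 54.0% of the 50 where 39.9% of all genes passed (20.3% and 19.6%). Here the median log2 difference was 0.21 and its median size 0.99, beside -0.01 and 0.37 over all genes. The 3 comparisons use the same 6 libraries in pairs of groups, so their results are not independent of each other.

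**Figure D2:**
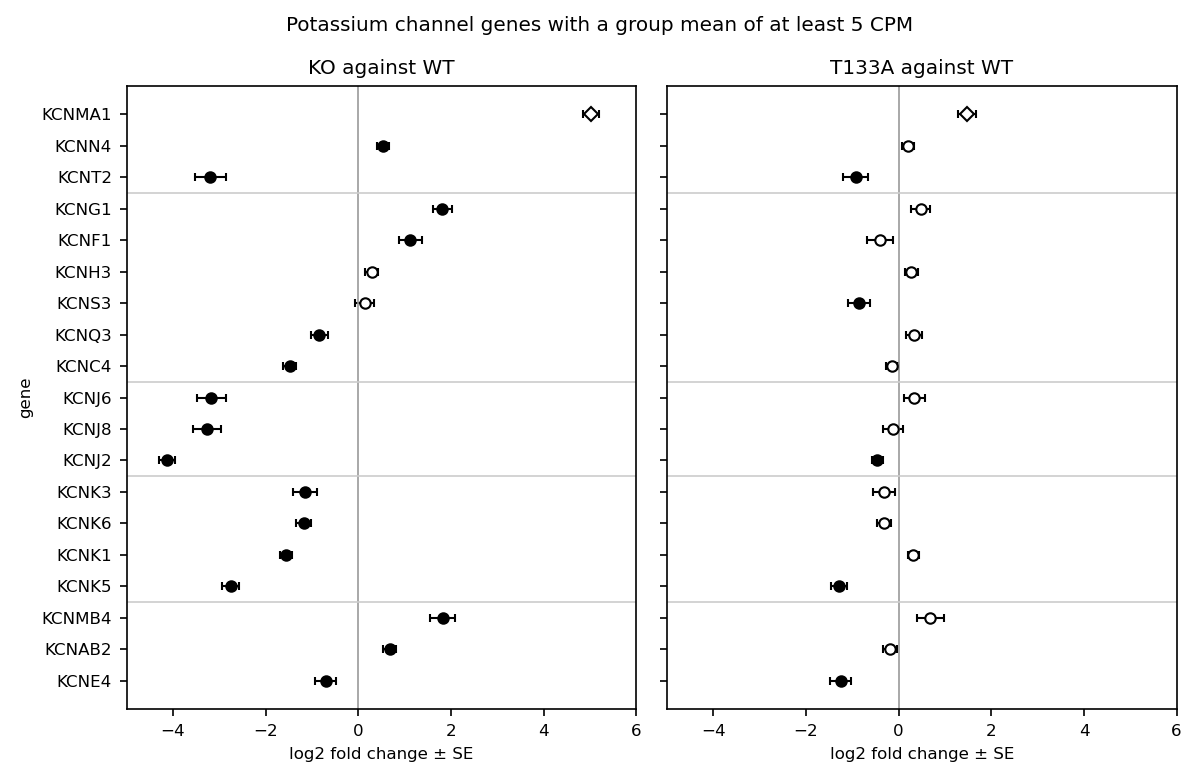
Log2 fold change (x axis, with bars of ± 1 SE) of 19 members with a group mean of at least 5 CPM (y axis, ordered by class), for KO against WT at left and T133A against WT at right. Filled marks had an edgeR adjusted p under 0.05, open circles did not, and the diamond is KCNMA1, given without a p-value. In KO against WT all inward rectifiers and two-pore-domain channels shown lie below 0, KCNJ2 lowest at -4.13, and KCNMA1 lies at 5.02.

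KCNN4 encodes the intermediate-conductance calcium-activated channel, which works in epithelial secretion and in lymphocytes. It was at 29.6 and 29.7 CPM in WT, 38.0 and 30.1 in T133A, with 41.1 and 44.9 in KO. KO lay above all other libraries, a rise of 0.54 ± 0.13 log2 over WT (adjusted p = 0.00187), while T133A overlapped neither group and did not pass against WT (0.20 ± 0.13, adjusted p = 0.392). T133A was lower than KO (adjusted p = 0.0436), but not by DESeq2, with the replicate block, in a fit of the compared groups only or in 5 other settings. KCNT2, a sodium-activated channel of the Slack family, ran the other way. It had 6.31 and 4.80 CPM in WT cells, 2.47 and 3.35 in T133A and 0.668 and 0.538 in KO cells, with no overlap between groups. Against WT it fell by 3.19 ± 0.34 log2 in KO (adjusted p = 7.82e-08) and by 0.93 ± 0.27 in T133A (adjusted p = 0.0283), the second call being lost by DESeq2 and without WT replicate 1 or T133A replicate 1.

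KCNU1, the BK relative of sperm that is opened by alkaline pH, is placed here by family. It had counts of 8 and 22 in WT, 13 and 19 in T133A and 0 in both KO libraries. Taking 3 counts as the limit in each KO library, it was at least 4.93-fold lower in KO than in WT and at least 5.43-fold lower than in T133A, and it passed in both (adjusted p = 0.000325 and 0.000282). KCNN1, a small-conductance channel, had 2.22 and 1.56 CPM in WT, which overlapped KO at 1.82 and 1.40. T133A, at 3.16 and 3.23, was higher than KO by 0.99 ± 0.32 log2 (adjusted p = 0.0152), a call lost by DESeq2 and without T133A replicate 2 or KO replicate 2. KCNN2 had 7 to 15 counts in every library and passed nowhere.

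Among the voltage-gated channels, KCNQ5 had the largest rise in KO. It encodes Kv7.5, which carries the M-type current that steadies excitable cells. Its counts (ENSG00000185760, GRCh38 chromosome 6, 72621792 to 73198851, plus strand) were 7 and 7 in WT and 28 and 31 in T133A, against 54 and 55 in KO. The groups formed 3 steps without overlap, WT lowest and KO highest, all at low depth. Against WT, KO was higher by 2.94 ± 0.41 log2 (adjusted p = 3.67e-06) and T133A by 2.08 ± 0.44 (adjusted p = 0.00268). The step from T133A to KO passed too (adjusted p = 0.0384), but not by DESeq2, without the low-count filter, with the replicate number as a block or without any 1 of the T133A or KO libraries.

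Of the other KCNQ genes, KCNQ3 and KCNQ1 fell in KO. KCNQ3, a partner of KCNQ5 in the M-current, had 13.3 and 13.9 CPM in WT cells, 14.9 and 19.3 in T133A cells and 6.74 and 8.40 in KO, and fell by 0.84 ± 0.18 log2 in KO (adjusted p = 0.000509). Both KO libraries lay below all others. KCNQ1, the Kv7.1 channel of heart and epithelia, had counts of 61 and 33 in WT and 23 and 23 in KO and fell by 1.03 ± 0.37 log2 (adjusted p = 0.0254), a call lost by DESeq2, by limma-voom and without WT replicate 1 or either KO library. Its antisense partner KCNQ1OT1 had 111 and 112 counts in WT cells, 56 and 58 in T133A and 76 and 27 in KO, and without a known strand setting the reads of the pair cannot be told apart.

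The genes KCNF1, KCNG1, KCNG3, KCNS3 and KCNV1 encode subunits that form no channel alone but join other voltage-gated subunits and change their gating, and are called electrically silent. KCNG1 was the silent subunit with the largest rise, from 3.97 and 4.46 CPM in WT and 6.78 and 4.94 in T133A to 14.5 and 15.2 in KO (1.82 ± 0.20 log2 against WT, adjusted p = 1.08e-07). KCNF1 stood at 4.68 and 3.46 CPM in WT, 4.02 and 2.12 in T133A, with 8.80 and 8.88 in KO, a rise of 1.12 ± 0.25 over WT (adjusted p = 0.000742). KCNV1 had 1.40 and 2.34 CPM in WT and 3.88 and 6.03 in KO, a rise of 1.40 ± 0.31 (adjusted p = 0.00082). For these 3 genes both KO libraries lay above all libraries of WT and T133A, which overlapped for KCNF1 and KCNV1 but not for KCNG1. KCNS3 did not share that pattern: it had 5.32 and 5.13 CPM in WT cells, 2.99 and 2.76 in T133A and 5.83 and 5.65 in KO cells, so that T133A alone stood low. It fell in T133A by 0.86 ± 0.23 log2 (adjusted p = 0.0196), a call lost by DESeq2 and without any 1 of the WT or T133A libraries, and KO against WT did not pass (0.14 ± 0.21, adjusted p = 0.635). KCNG3 passed between T133A (4 and 23 counts) and KO (33 and 35 counts), with an adjusted p of 0.0478 that did not hold with library size scaling, by DESeq2 or without T133A replicate 1 or either KO library.

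KCNC1 and KCNC4 encode Kv3 channels, which repolarise fast-firing cells. KCNC4 had 36.1 and 34.0 CPM in WT and 31.6 and 31.9 in T133A, against 12.4 and 12.6 in KO. It fell by 1.48 ± 0.13 log2 in KO (adjusted p = 6.37e-09), and the KO libraries lay well below the rest. KCNC1 had counts of 4 and 7 in WT cells, 5 and 25 in T133A cells and 28 and 30 in KO. It rose in KO over WT by 2.37 ± 0.62 (adjusted p = 0.00331), while its T133A libraries lay far apart, 1 near WT and 1 near KO. KCNC1 lies opposite SERGEF.

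The EAG channels split as well. KCNH1, the ether-à-go-go channel found in many tumour lines, had counts of 9 and 10 in WT, 11 and 8 in T133A, with 39 and 48 in KO, a rise in KO of 2.18 ± 0.44 log2 over WT (adjusted p = 0.000296), with WT and T133A overlapping. KCNH1-IT1, a transcript inside its intron, had 6 and 5 counts, in KO libraries only. KCNH5 had counts of 15 and 12 in WT cells, 4 and 0 in T133A and 1 and 0 in KO cells. The 27 WT counts and 1 KO count give a ratio of 27.0 scaled for depth (95% counting interval 4.45 to 1106, counting error only), and the call (adjusted p = 0.00271) was lost without KO replicate 2. KCNH3, at 16.7 to 22.1 CPM the most abundant voltage-gated gene per length, passed in no comparison, and it lies opposite MCRS1. KCNH2, the hERG channel, and KCNH4 did not pass either. The A-type channel KCND1, between 3.91 and 4.91 CPM, overlapped among all groups.

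**Figure D3:**
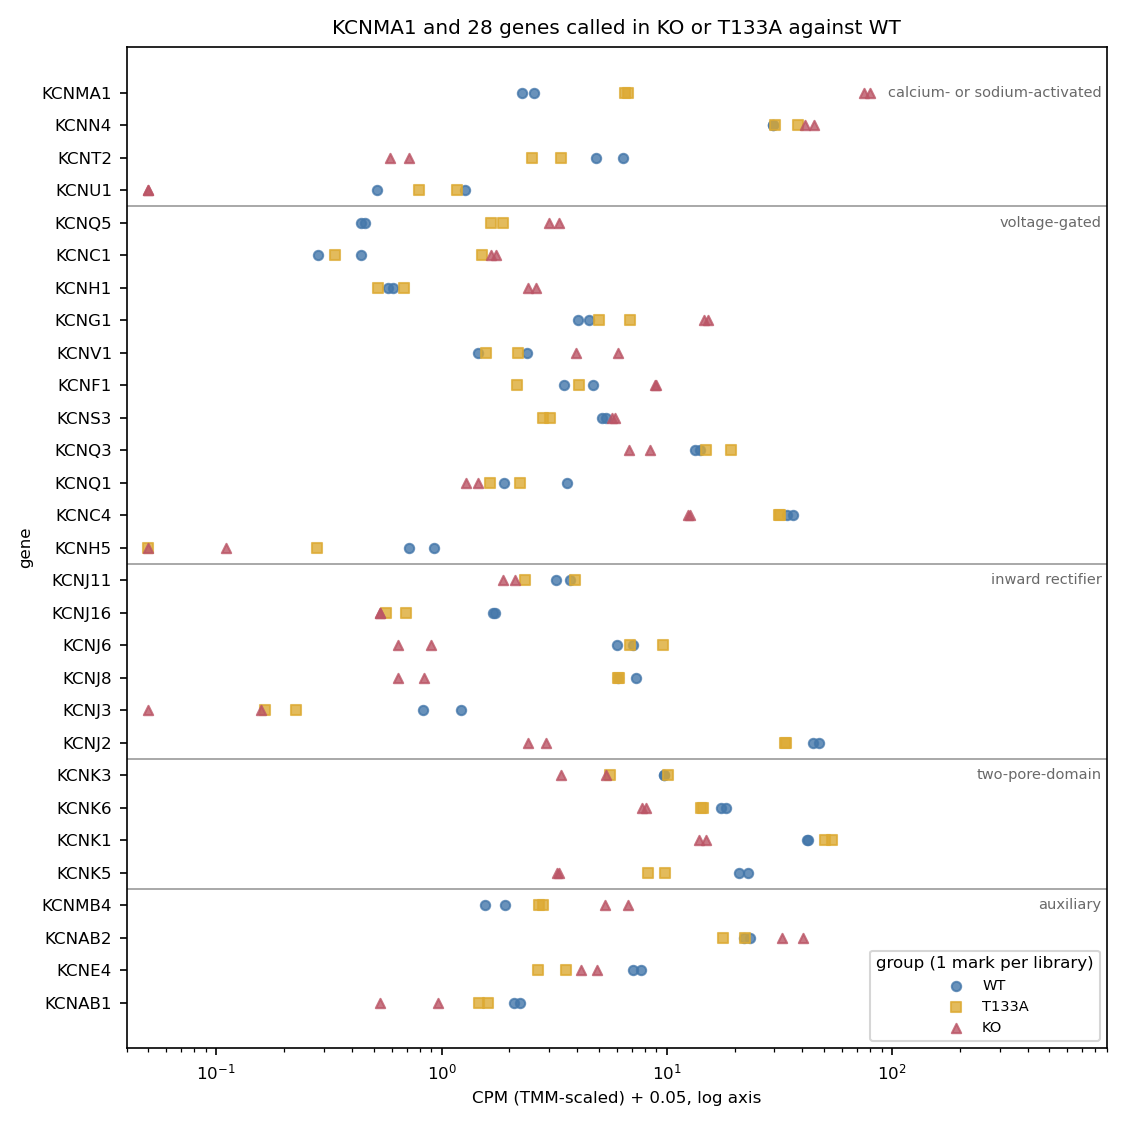
Level of KCNMA1 and of 28 members called in KO or T133A against WT, as TMM-scaled CPM plus 0.05 on a log axis. Each mark is 1 library, circles for WT, squares for T133A and triangles for KO, and genes are ordered by class and then by the log2 fold change of KO against WT. The KO triangles lie to the left of the WT circles for every inward rectifier and two-pore-domain gene shown, and to the right for KCNMA1, KCNMB4 and KCNAB2.

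The inward rectifiers called in KO were all lower. KCNJ2 encodes Kir2.1, the strong rectifier that holds the resting voltage of heart and muscle. Its CPM values (ENSG00000123700, GRCh38 chromosome 17, 70168673 to 70180048, plus strand) were 47.4 and 44.6 in WT and 33.3 and 33.7 in T133A, against 2.37 and 2.85 in KO. No groups overlapped, with KO far below and T133A just below WT. KO was lower by 17.5-fold, that is a log2 fold change of -4.13 ± 0.17 (adjusted p = 4.4e-15). T133A fell by 0.46 ± 0.13 log2 (adjusted p = 0.0221), a call lost without T133A replicate 1 or either WT library. KCNJ2-AS1, antisense to it, had 49 and 44 counts in WT cells, 39 and 54 in T133A and 6 and 8 in KO, few beside the 811 and 800 counts of KCNJ2 in WT.

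KCNJ16, which encodes Kir5.1 and lies 33.1 kb from KCNJ2, had counts of 28 and 30 in WT cells, 9 and 11 in T133A cells and 8 and 9 in KO. It fell by 1.76 ± 0.48 log2 in KO (adjusted p = 0.00479) and by 1.5 ± 0.47 in T133A (adjusted p = 0.0456). The T133A call was lost by DESeq2, without the low-count filter, with the replicate block, and without any 1 of the 6 libraries.

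KCNJ8 and KCNJ11 encode Kir6.1 and Kir6.2, the pores of the ATP-sensitive channel, which pair with the sulfonylurea receptors ABCC9 and ABCC8. KCNJ8 (ENSG00000121361, GRCh38 chromosome 12, 21764955 to 21775581, minus strand) was at 6.02 and 7.25 CPM in WT, 6.04 and 6.11 in T133A, with 0.789 and 0.592 in KO. WT and T133A overlapped and KO stood apart, and against WT it fell by 3.26 ± 0.30 log2 (adjusted p = 6.11e-09). KCNJ11 had 3.68 and 3.18 CPM in WT and 2.06 and 1.83 in KO and fell by 0.82 ± 0.31 (adjusted p = 0.0326), a call lost by DESeq2 and without any 1 of the WT or KO libraries. Of the receptors, ABCC8 had 8.30 and 7.42 CPM in WT and 6.74 and 4.04 in KO (-0.55 ± 0.22, adjusted p = 0.0462), and ABCC9 passed only between T133A and KO, with 29 and 24 against 8 and 1 counts (adjusted p = 0.00237).

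The G-protein-gated rectifiers KCNJ3 and KCNJ6 form the GIRK channels that slow firing in heart and brain. KCNJ6 was at 7.01 and 5.97 CPM in WT cells, 6.84 and 9.58 in T133A and 0.850 and 0.592 in KO cells. It fell in KO by 3.17 ± 0.31 log2 (adjusted p = 1.93e-08), while WT and T133A overlapped. KCNJ3 had counts of 20 and 14 in WT and 2 and 3 in T133A, against 0 and 2 in KO, so both other groups lay below WT. Scaled for depth, its WT to KO ratio was 17.0 (95% counting interval 4.36 to 146; adjusted p = 0.00105). In T133A it fell by 2.68 ± 0.76 log2 (adjusted p = 0.026), which was lost without any 1 of the WT or T133A libraries. KCNJ15, 34.2 kb from KCNJ6 on chromosome 21, had counts of 12 and 22 in T133A and 1 and 0 in KO, a ratio of 34.6 (95% counting interval 5.81 to 1408; adjusted p = 0.000524), and did not pass against WT at 4 and 5 counts. KCNJ4, KCNJ12 and KCNJ14 passed nowhere.

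The two-pore-domain channels called in KO were also all lower. KCNK1 encodes TWIK-1, a weak background channel. It was at 42.4 and 41.7 CPM in WT cells, 54.2 and 50.2 in T133A cells and 14.9 and 13.8 in KO, and fell in KO by 1.55 ± 0.13 log2 (adjusted p = 1.4e-09). T133A did not pass against WT (0.31 ± 0.12, edgeR adjusted p = 0.106), and its libraries lay above those of WT. KCNK5 encodes TASK-2, a channel opened by alkaline pH that takes part in volume regulation and bicarbonate transport of epithelia. At 22.9 and 21.0 CPM in WT, 8.22 and 9.76 in T133A, with 3.22 and 3.28 in KO, its groups formed 3 descending steps. Against WT it fell by 1.29 ± 0.16 log2 in T133A (adjusted p = 7.62e-06) and by 2.75 ± 0.19 in KO (adjusted p = 4.18e-11).

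KCNK6, the TWIK-2 channel, had 18.3 and 17.3 CPM in WT cells, 14.4 and 14.1 in T133A and 8.01 and 7.75 in KO cells, and against WT it fell in KO by 1.18 ± 0.16 log2 (adjusted p = 2.39e-06). KCNK3, the acid-sensitive TASK-1, had 9.70 and 9.70 CPM in WT and 3.34 and 5.33 in KO and fell by 1.15 ± 0.25 (adjusted p = 0.000698). Its T133A libraries, at 10.1 and 5.53 CPM, lay 1 at the WT level and 1 near KO, and the call of T133A over KO (adjusted p = 0.012) was lost without T133A replicate 1 or KO replicate 1. KCNK12, the THIK-2 gene, passed in the other direction between T133A and KO. It had counts of 3 and 0 in T133A and 13 and 12 in KO, a KO to T133A ratio of 8.18 (95% counting interval 2.50 to 42.3; adjusted p = 0.0238) that was lost by DESeq2 and without T133A replicate 2 or either KO library. KCNK15, which lies opposite RIMS4, passed nowhere.

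Of the auxiliary proteins, KCNE4, a single-span subunit that inhibits KCNQ1, was highest in WT. It had 7.66 and 7.03 CPM in WT and 2.64 and 3.53 in T133A, against 4.13 and 4.84 in KO, with T133A lowest and no overlap. In T133A it fell by 1.25 ± 0.23 log2 (adjusted p = 0.000819) and in KO by 0.71 ± 0.22 (adjusted p = 0.0117), the KO call being lost without WT replicate 1 or KO replicate 1. The Kv beta subunits, cytoplasmic partners of Kv1 channels, differed among themselves. KCNAB2 had 22.0 and 23.4 CPM in WT cells, 22.3 and 17.8 in T133A cells and 32.5 and 40.1 in KO and rose in KO by 0.68 ± 0.14 (adjusted p = 0.000547). It lies opposite NPHP4, at 310 to 408 counts.

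KCNAB1 had counts of 35 and 39 in WT, 27 and 24 in T133A, with 15 and 9 in KO and fell in KO by 1.61 ± 0.42 log2 (adjusted p = 0.00353). KCNAB3 passed between T133A (50 and 32 counts) and KO (24 and 15 counts), with an adjusted p of 0.0285 that was lost by DESeq2 and without T133A replicate 1 or KO replicate 2. Their partners in the Shaker class were scarce: 6 of the KCNA genes had no count, and the others missed the filter. KCNIP3, a calcium-binding Kv4 partner and transcriptional repressor, had counts of 11 and 11 in T133A and 26 and 31 in KO. That difference passed (adjusted p = 0.0212), but not by DESeq2 or without either T133A library or KO replicate 2.

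Set per unit of gene length, the libraries held different mixes of channel transcripts. The FPKM values (counts scaled to gene length and library size) of the 97 members summed to 69.7 and 67.3 in WT cells, 66.2 and 62.5 in T133A and 52.3 and 55.4 in KO cells. Both KO sums of FPKM were below all others. Summed as CPM, which is not scaled to gene length, the KO libraries overlapped those of T133A. KO replicate 2 reached 340 CPM, above T133A replicate 2 at 328. Neither KO library reached the lower WT sum of 350 CPM. In WT and T133A, KCNK1 ranked first, with 16.7% and 16.9% of the summed FPKM in WT and 22.1% and 22.2% in T133A, followed by KCNN4 and KCNJ2. In KO, KCNN4 ranked first with 22.7% and 24.1% and KCNH3 second, while KCNK1 held 7.71% and 6.97% and KCNJ2 0.798% and 0.935%. KCNMA1 held 0.101% and 0.0921% in the WT libraries, 0.270% and 0.302% in T133A, and 3.96% and 4.08% in KO, where it ranked 7th in both libraries. Its deposited length of 35644 bases puts it lower per length than in CPM. Members at 1 FPKM or more numbered 15 and 14 in WT and 15 and 10 in T133A, against 10 and 12 in KO, with overlap between T133A and both other groups.

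**Figure D4:**
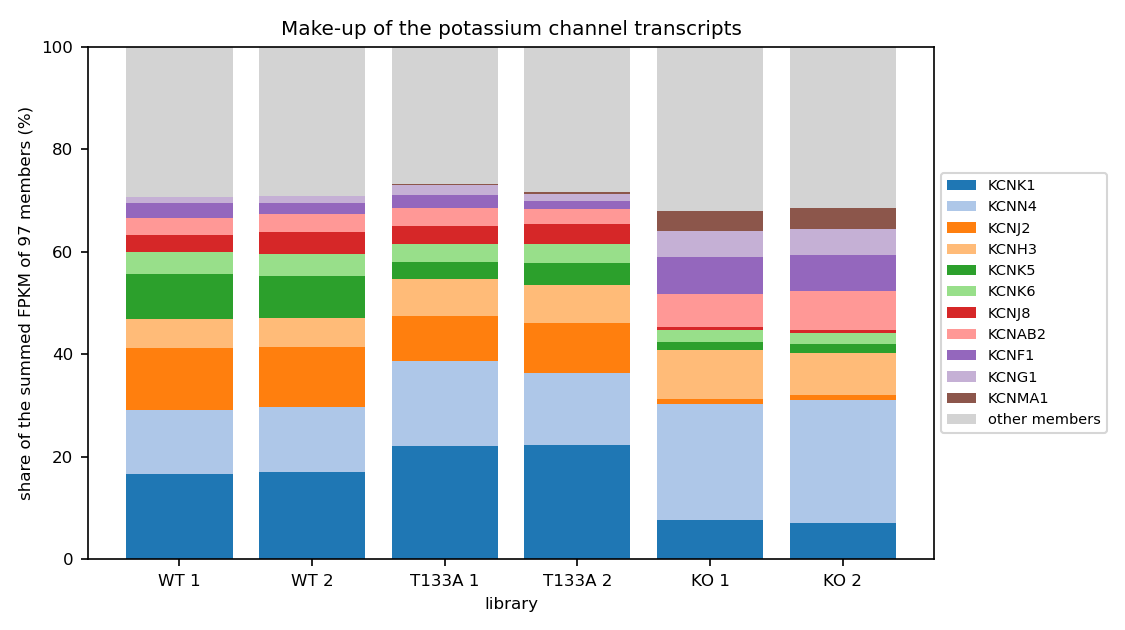
Share of the summed FPKM of the 97 members (y axis, percent) taken by 11 named genes and by the others, in each library (x axis). KCNK1 and KCNJ2 take smaller shares in the KO libraries than in the other four, and KCNN4, KCNAB2, KCNF1, KCNG1 and KCNMA1 take larger ones.

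Channels work against gradients that pumps and cotransporters build. A list of 43 genes related to potassium transport held the sodium-potassium pump, the cation-chloride cotransporters and their WNK kinases, HCN channels, sulfonylurea receptors and BK gamma subunits, and 25 were tested. In KO against WT 2 rose and 11 fell, in T133A against WT 1 rose and 1 fell, and between T133A and KO 12 were higher in T133A and 3 lower. Over all genes tested the shares called, in either direction, were 46.6%, 9.55% and 39.9% in these comparisons. SLC12A2, the NKCC1 cotransporter that loads epithelial cells with chloride and potassium, had 332 and 317 CPM in WT cells, 199 and 233 in T133A cells and 65.0 and 69.5 in KO. It formed 3 descending steps without overlap, and fell by 0.59 ± 0.10 log2 in T133A (adjusted p = 0.000503) and by 2.27 ± 0.11 in KO (adjusted p = 1.25e-13).

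Of the pump, the beta subunit ATP1B1 was at 518 and 510 CPM in WT, 625 and 619 in T133A, with 181 and 207 in KO, a log2 fold change of -1.40 ± 0.10 against WT (adjusted p = 2.01e-10). The beta subunit ATP1B3 fell by 0.46 (adjusted p = 0.000646). FXYD2, a small regulator of the pump with 3 to 24 counts, passed only between T133A and KO (adjusted p = 0.0477). Of the pacemaker channels, which carry both sodium and potassium, HCN3 and HCN4 fell in KO by 1.05 and 1.47 log2 (adjusted p = 4.3e-05 and 7.87e-06). HCN2, at 83.0 to 118 CPM, overlapped among the groups and passed nowhere. The kinases WNK4, OXSR1 and STK39 fell in KO and WNK2 rose.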

How the data were processed

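RNA of 6 libraries in 3 groups was analysed from 1 deposited table per library, with read counts and FPKM values for each gene. The counts are whole numbers with no normalization, as deposited by the authors. The FPKM values deposited by the authors divide each count by gene length and by 0.967 to 1.03 times the library's total. HISAT2 2.0.5, featureCounts 1.5.0 and the GRCh38 build are named in the submitters' processing notes. Strand setting and annotation release: not given in the sources used here. How reads in overlapping genes were assigned is thus not known.

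Counts of all genes were fitted with edgeR 4.0.16 (R 4.3.3; quasi-likelihood test, robust, TMM scaling, filterByExpr) in 1 model of all 6 libraries without covariates besides group, which tested 16340 genes, 13538 of them protein coding. The biological coefficient of variation was 8.96%. P-values are two-sided, with Benjamini-Hochberg adjustment over all genes tested in a comparison, at a threshold of 0.05. Log2 fold changes are positive where the group named first is higher. Each SE is the absolute log2 fold change divided by the square root of the quasi-likelihood F statistic. This holds for KCNMA1 too, for which no p-value is given. CPM values are TMM-scaled, and each level or fold change rests on 2 libraries per group. Where a group's counts were all 0, a fold is a bound against 3 counts per library. Ratios from 1 to 3 counts carry exact 95% intervals, for counting error only.

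The members, the list of related genes and the marker lists were chosen with earlier results of these data known. Named members are KCNMA1 and those called in a comparison or at 5 CPM or more in a group, 38 in all. Related genes are named where called with a log2 change of at least 1, up to 10, with the BK gamma subunits. Genes named outside this rule (ABCC8, ATP1B3, HCN2, OXSR1, STK39, WNK2, neighbours and members that did not pass) were chosen after their values were seen. Some genes that the rule or lists take in are counted but not reported by name here. Alternatives were DESeq2 1.42.0, limma-voom (limma 3.58.1), scaling by RLE or by library size, leaving out the low-count filter or raising it to a mean of 5 CPM, a fit of the compared groups alone, a replicate block, offsets for GC content and length (loess span 0.5), and leaving out each library. Promoter windows are from RefSeq (GRCh38.p14), and letters were searched on both strands. Python 3.11.15, pandas 2.3.3 and matplotlib 3.10.9 were used.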

Additional observations from a re-analysis of the deposited data

How the results depend on the processing

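KCNMA1 kept its directions in all settings, with log2 fold changes of 4.94 to 5.42 for KO against WT and 1.38 to 1.56 for T133A against WT. Of 63 called results of single members, 45 were called in every setting that tested the gene and gave it an adjusted p. A setting that filtered the gene out was passed over and not counted as a loss. The other 18 were lost in at least 1 setting, as given beside each gene reported by name. With a minimum mean of 5 CPM only 15 of the 50 other members were tested, and the counts were 0 potassium channel genes higher and 3 lower in T133A than in WT, 4 higher and 9 lower in KO than in WT, and 9 higher and 3 lower in T133A than in KO. DESeq2 called 3 members lower in T133A than in WT (6 had no adjusted p) and 8 lower in T133A than in KO. GC and length offsets gave 2 members higher in T133A than in WT. The cause was not tested for DESeq2 or the offsets.

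Leaving out 1 library gave 1 to 3 members higher and 2 to 6 lower in T133A than in WT, 9 to 11 higher and 15 to 18 lower in KO than in WT, and 12 to 15 higher and 8 to 12 lower in T133A than in KO. The library left alone in its group was assumed to vary like the others. Replicates did not vary alike: chi-square per degree of freedom against counting noise was 2.37 in WT, 9.16 in T133A and 11.05 in KO. Such fits also have less power, so a lost call does not show that a result rests on the library left out. Without WT replicate 1 the fall in T133A was called for 2 members, without WT replicate 2 for 3 and without T133A replicate 2 for 4. Without T133A replicate 1, 2 members were called higher in T133A than in WT, and without T133A replicate 2, 3 were. Without KO replicate 2, 8 were lower in T133A than in KO.

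Reversed values were all of differences that had not passed. Leaving out 1 library moved KCNJ8 in T133A against WT between -0.26 and 0.0021 (without WT replicate 2), KCNK3 in T133A against WT between -0.80 and 0.057 (without T133A replicate 2), and KCNH3 in T133A against KO between -0.084 and 0.045 (without KO replicate 1; 0.02 without T133A replicate 2). KCNH3 was also 0.024 with a minimum mean of 5 CPM and 0.15 with GC and length offsets, with or without the replicate block.

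The replicate numbers are not said to mark a shared culture or day, so they were not taken as pairs. Libraries with the same number did not deviate together (correlations of -0.05, 0.02 and -0.12). With the replicate block, 1 member was higher and 8 lower in T133A than in WT, 12 higher and 18 lower in KO than in WT, and 14 higher and 11 lower in T133A than in KO. With the numbers of the KO libraries crossed, a setting chosen after seeing the data, 15 were higher and 13 lower in T133A than in KO. Members under about 20 counts per library carry wide counting error, and differences among them were often not detectable at this depth.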
